A study of Sus scrofa with 12 samples.

Results

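The genes described here encode the proteins of the mitochondrial ribosome, and they were taken as every row of the deposited expression table whose pig gene symbol starts with MRPL or MRPS. The rule gave 43 Ensembl gene identifiers with 43 different symbols, out of 22861 rows. Of these, 29 carry an MRPL symbol and 14 an MRPS symbol. Only 11450 rows could be given a symbol, so MRPL and MRPS genes may also lie among the 11411 unnamed rows, and 22 of the 65 identifiers that the name table assigns to such symbols had no row.

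The values are RNA-seq levels in a hind limb muscle, Biceps femoris, of male piglets sampled on postnatal day 1. The table held 6 purebred Iberian animals (IB), a fatty traditional breed, and 5 animals from Iberian dams mated to Duroc boars (IBxDU), so that both groups share Iberian mothers and differ in the breed of the sire. A further IBxDU animal named in the labels had no column and was not analysed here. The study took up to a pair of piglets per litter, and the labels do not give the litter, so all p-values count littermates as independent animals.

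Mitochondria keep their own small genome, which encodes a few subunits of the respiratory chain, and they translate those messages on their own ribosome. All proteins of this ribosome are encoded in the nucleus, made in the cytosol and imported, and they join ribosomal RNA that is transcribed inside the organelle. The large subunit forms the peptide bond, the small subunit reads the messenger RNA, and each contains proteins inherited from the bacterial ancestor beside others found only in mitochondria. In skeletal muscle, this machinery serves the oxidative capacity of the fibres.

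By the place of the proteins in the mammalian mitoribosome, 30 of the 43 genes belong to the large subunit and 13 to the small subunit. One symbol crosses this line: MRPS18A is named for the bacterial small subunit protein S18, but its product sits in the large subunit and is counted there. By the names of the bacterial counterparts, 25 of the proteins were counted as having a bacterial homologue and 18 as specific to mitochondria. The 18 include MRPS18A and MRPS18B, although both carry the name of bacterial S18. No symbol was carried by more than 1 identifier.

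The values are RPKM, reads scaled by the exon length of the gene and by the mapped reads of the animal, and they come from 16940746 to 30630157 exon reads per animal as recovered from the table. A member rested on 81 (MRPL54) to 5302 (MRPL17) reads in an animal. All 43 members passed the filter of a mean above 0.5 RPKM in at least 1 group, as did 11875 genes in all. The within-group SD on the log2 scale had a median of 0.286 over the members. The counting of reads alone would give a median of 0.0456, so that by these medians counting was a small part of the spread between animals. It was a larger part in MRPL22 (0.107 from counting, within-group SD 0.163) and MRPL54 (0.136 and 0.290). The muscle markers were abundant in every animal, with a sum over the 4 of 9 listed that had a row (ACTA1, TNNC2, DES and PYGM) of 26982 to 60028 RPKM, and the summed T cell markers CD3D, CD2 and CD5 were at most 2.66 RPKM. In bulk tissue, fewer cells of a type and less RNA per cell cannot be told apart.

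The members were expressed at a moderate to high level. Their mean over the 11 animals ranged from 4.89 RPKM for MRPL19 to 117.6 RPKM for MRPL28, with a median of 32.7 RPKM. The median of all genes tested was 5.29 RPKM, and the median member stood at the 87.4th percentile of them. There were 8 members above 50 RPKM, 33 between 10 and 50 RPKM and 2 below 10 RPKM, and 42 of the 43 lay above the median gene.

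**Figure D1:**
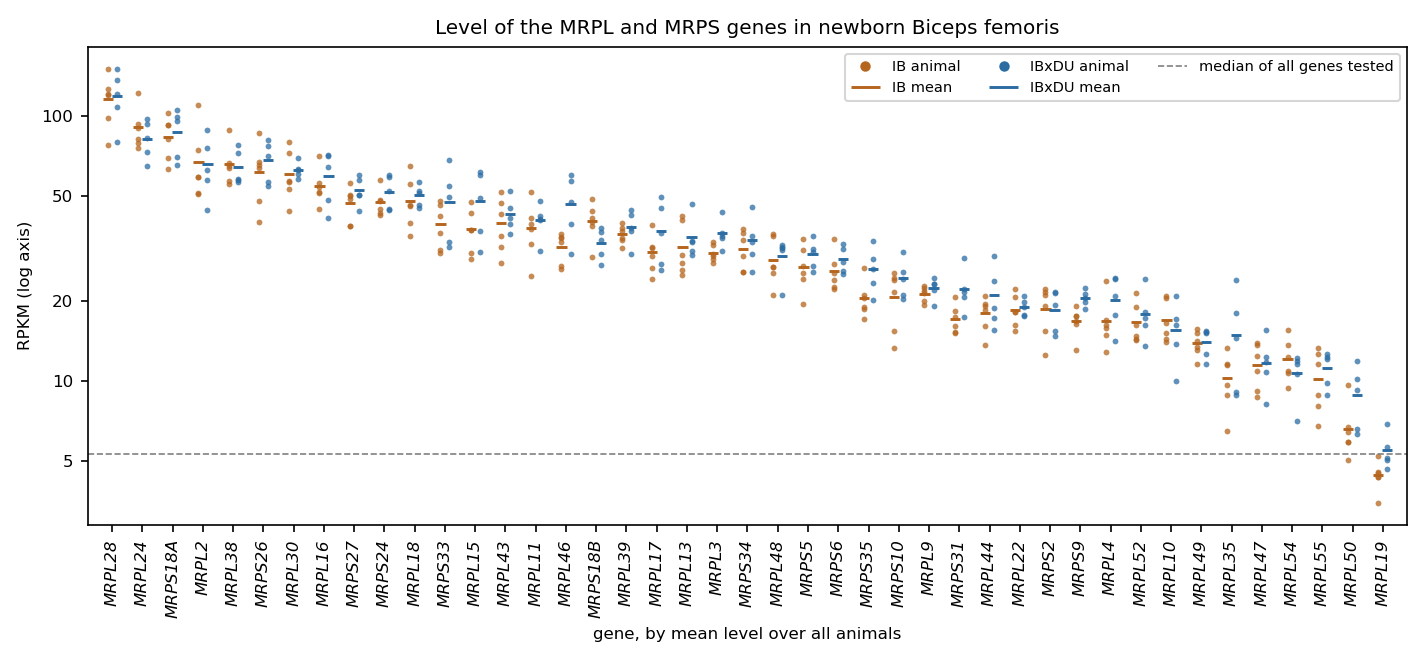
Level of each of the 43 MRPL and MRPS genes in RPKM on a log axis, ordered by the mean over all animals, with 1 point per animal, a bar at each group mean and a dashed line at the median of all genes tested. The means run from 117.6 RPKM (MRPL28) to 4.89 RPKM (MRPL19), 42 members lie above the median gene at 5.29 RPKM, and the points of the groups overlap in every gene.

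The 4 genes with the highest level all encode large subunit proteins. MRPL28 (ENSSSCG00000007984), the homologue of bacterial L28, was at 78.1 (lowest), 121 (median) and 150.4 (highest) RPKM in IB, and the animals IBxDU-402, IBxDU-412, IBxDU-426, IBxDU-427 and IBxDU-429 were at 109, 79.6, 122, 137 and 151 RPKM. Values of the cross are given in this order throughout. These groups covered nearly the same range, with 1 low animal in each. IB averaged 116 ± 24.9 RPKM and IBxDU 120 ± 27.5 RPKM (SD, n = 6 and 5).

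MRPL24 (ENSSSCG00000006469) is the homologue of L24, a protein that in bacteria binds early during assembly of the large subunit. It was at 76, 86.3 and 122 RPKM in IB (lowest, median, highest), and the IBxDU animals in the same order were at 97.2, 93.7, 82.9, 73 and 64.8 RPKM. IBxDU-427 and IBxDU-429 were below every IB animal, although IBxDU-429 had high values for most other members. MRPS18A (ENSSSCG00000001692) was at 63.1, 87.1 and 103 RPKM in IB and at 70, 65.3, 99.4, 106 and 96.1 RPKM in IBxDU. MRPL2 (ENSSSCG00000001658), the counterpart of a protein close to the bacterial peptidyl transferase centre, was at 50.8, 58.9 and 111 RPKM in IB and at 75.8, 44.3, 88.9, 57.4 and 62.6 RPKM in IBxDU. Its highest value came from IB-323, far above the other IB animals, and the groups overlapped in both of these genes.

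The 4 genes with the lowest level also belong to the large subunit. MRPL54 (ENSSSCG00000024242), a protein specific to mitochondria, was at 9.39, 11.6 and 15.6 RPKM in IB and at 12.3, 7.09, 11.9, 10.6 and 11.6 RPKM in IBxDU. MRPL55 (ENSSSCG00000029050) was at 6.79, 10.25 and 13.3 RPKM in IB and at 12.3, 9.83, 12.1, 8.87 and 12.7 RPKM in IBxDU. In both genes IB-330 was the lowest IB animal and the groups overlapped. MRPL50 and MRPL19, the other two, are described with the differences below.

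Within a gene, the highest animal exceeded the lowest by a median factor of 1.87. This ratio was smallest for MRPL9, the homologue of bacterial L9, at 1.28, and largest for MRPL35, the homologue of L35, at 3.72. Summed over the 43 members, IB animals had 1483 ± 207 RPKM and IBxDU animals 1598 ± 202 RPKM (SD, n = 6 and 5). The lowest sum was that of IB-330 at 1213 RPKM and the highest that of IBxDU-429 at 1829 RPKM. The ratio of the large to the small subunit sum was 2.57 ± 0.194 in IB and 2.49 ± 0.155 in IBxDU, a difference within the spread between animals.

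The comparison of the genetic types asks whether the cross with Duroc altered the expression of this set at birth. None of the 43 members passed an adjusted p of 0.05 (limma on log2(RPKM + 0.1), Benjamini-Hochberg over the 11875 genes, percent called over all genes 0.0168), and the lowest adjusted p among them was 0.560. At an unadjusted p under 0.05 there were 2 members higher in IBxDU, 4.65% of the members against 6.0% of all genes tested, and 0 members higher in IB against 2.02% of all genes. With limma-voom on the recovered reads the counts were again 0 and 2. There were 0 members without overlap between the groups, where 0.808% of all genes were higher in IBxDU without overlap and 0.227% higher in IB.

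By direction, 36 of 43 members (83.7%) had a higher mean in IBxDU, and so did 66.9% of all genes tested. The median log2 fold change of the members, IBxDU minus IB, was 0.131, and that of all genes was 0.128. After the values of each animal were rescaled by a median-of-ratios factor, which sets the typical gene equal between animals, 22 members (51.2%) were higher in IBxDU against 51.5% of all genes, and both medians were 0.0109. An upper quartile scaling gave 22 members against 51.4% of all genes. The median of the members thus did not stand apart from that of the table. At an unadjusted p under 0.05, 0 members were higher in IBxDU after either scaling (3.02% of all genes after upper quartile and 3.03% after median-of-ratios scaling). Higher in IB were 1 member after upper quartile scaling (4.37% of all genes) and 0 after median-of-ratios scaling (4.42%). The large subunit had 25 of 30 members higher in IBxDU and the small subunit 11 of 13, and after either scaling 12 of 30 and 10 of 13, with medians of -0.03 and 0.04. The difference between the subunits was not tested.

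**Figure D2:**
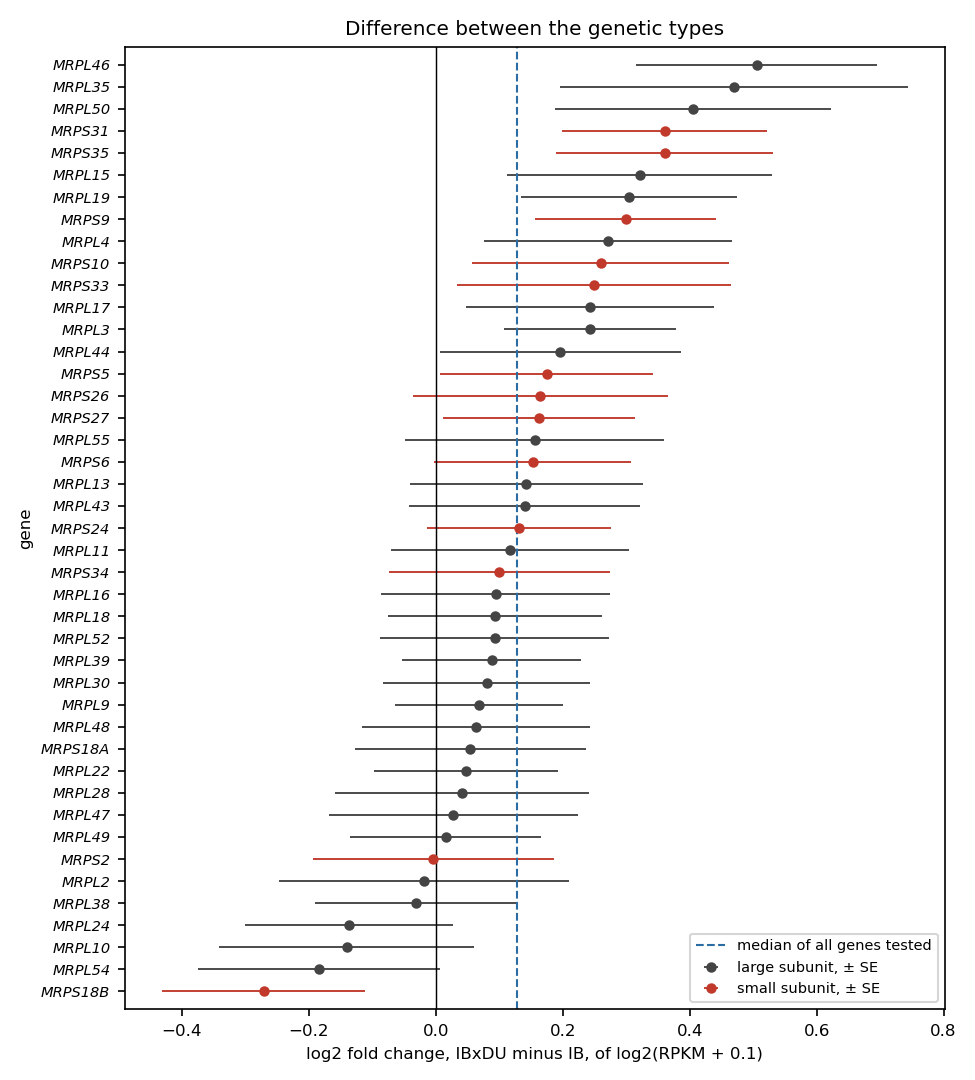
Log2 fold change of each member, IBxDU minus IB, on the log2(RPKM + 0.1) scale with its SE from limma, coloured by subunit, with a dashed line at the median of all genes tested. Members run from -0.27 (MRPS18B) to 0.51 (MRPL46) around the median gene at 0.128, and none passed the adjusted threshold.

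The member with the smallest p was MRPL46 (ENSSSCG00000005105), a protein specific to mitochondria in the central protuberance of the large subunit. It was at 26.5, 34 and 35.8 RPKM in IB (lowest, median, highest), and the IBxDU animals were at 39, 30.1, 56.7, 47.6 and 60.1 RPKM. The 6 IB animals lay close together, 4 of 5 IBxDU animals were above all of them, and IBxDU-412 fell inside the IB range. The group means came to 32.1 ± 4.12 and 46.7 ± 12.4 RPKM (SD, n = 6 and 5). The log2 fold change was 0.51 (SE 0.19, limma unadjusted p = 0.0187, adjusted p = 0.560), and 0.38 after either scaling.

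MRPS31 (ENSSSCG00000009372), a small subunit protein specific to mitochondria, was the other member at an unadjusted p under 0.05. IB animals were at 15.1, 16.8 and 20.7 RPKM, and the IBxDU animals in the same order were at 20.7, 17.4, 21.7, 22.4 and 29.2 RPKM. Each of the 5 IBxDU animals exceeded the IB mean and 3 exceeded the highest IB animal, with IBxDU-429 at the top. The log2 fold change was 0.36 (SE 0.16, limma unadjusted p = 0.0426, adjusted p = 0.609), and it was 0.24 after either scaling.

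MRPS35 (ENSSSCG00000000547), also a small subunit protein found only in mitochondria, was at 17.2, 19.8 and 26.7 RPKM in IB and at 20.2, 23.4, 29, 26.5 and 33.9 RPKM in IBxDU. IB-503 stood above the other IB animals, and only 2 IBxDU animals exceeded it. MRPS9 (ENSSSCG00000028020), the homologue of bacterial S9, was at 13.1, 17.2 and 19.2 RPKM in IB and at 19.9, 22.4, 20.6, 18.7 and 21.3 RPKM in IBxDU. Here 4 of 5 IBxDU animals were above the highest IB animal, and 5 of 6 IB animals were below the lowest IBxDU animal. MRPS9 had the smallest exact p of the members, 0.00649 in a two-sided permutation test of the mean log2 value over 462 relabelings, of which the smallest possible p is 0.00216. Its limma p was 0.0551 (adjusted p = 0.612, log2 fold change 0.30, SE 0.14). Unlike the permutation test, limma moves the variance of a gene towards that of genes of like level. In all, 6 of 43 members (14.0%) had an exact p under 0.05 without adjustment and were higher in IBxDU, against 7.16% of all genes tested, and 0 were higher in IB, against 1.83%.

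The other genes with a small p belong to the large subunit. MRPL50 (ENSSSCG00000027974), specific to mitochondria, was at 5.05, 6.14 and 9.68 RPKM in IB and at 6.57, 6.31, 10.16, 9.28 and 11.9 RPKM in IBxDU. IB-503 was high again, and IBxDU-402 and IBxDU-412 were within the range of the other IB animals. MRPL3 (ENSSSCG00000011179), whose bacterial homologue L3 reaches towards the peptidyl transferase centre, was at 27.9, 29.9 and 33.4 RPKM in IB and at 34.6, 31.1, 36.2, 35.4 and 43.6 RPKM in IBxDU. In MRPL3, 4 of 5 IBxDU animals were above every IB animal, with a log2 fold change of 0.24 (SE 0.14, limma adjusted p = 0.633).

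MRPL19 (ENSSSCG00000021007), the homologue of L19 and the member with the lowest level, was at 3.47, 4.43 and 5.23 RPKM in IB and at 4.67, 5.02, 5.65, 5.13 and 6.91 RPKM in IBxDU. Each of the 5 IBxDU animals exceeded the IB mean, and IB-323 alone among the IB animals reached into their range. MRPL35 (ENSSSCG00000021746) was at 6.47, 10.6 and 13.4 RPKM in IB and at 9.06, 8.84, 14.6, 18.1 and 24.1 RPKM in IBxDU. The IBxDU animals were spread more widely than the IB animals in this gene, since IBxDU-402 and IBxDU-412 were below the IB mean and the other 3 above all IB animals. Its log2 fold change was 0.47 (SE 0.27, limma adjusted p = 0.643).

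In the opposite direction, MRPS18B (ENSSSCG00000029425) had the lowest log2 fold change and is named here after its value was seen. Its product also carries the S18 name, is counted among the proteins specific to mitochondria and sits in the small subunit. It was at 29.4, 40.5 and 48.8 RPKM in IB and at 36.4, 34.1, 37.9, 30.1 and 27.4 RPKM in IBxDU. In MRPS18B 0 of 5 IBxDU animals were above the IB mean, and 5 of 6 IB animals were above the highest IBxDU animal, the exception being IB-330. The log2 fold change was -0.27 (SE 0.16, limma adjusted p = 0.647), and the unadjusted p was 0.0395 after upper quartile scaling and 0.0371 without IB-330. The other 6 members with a lower mean in IBxDU were MRPL54, MRPL10, MRPL24, MRPL38, MRPL2 and MRPS2, with adjusted p between 0.795 and 0.995.

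The members had higher pairwise correlations across animals than genes in general, and lower ones than the genes of the respiratory chain. With the group means subtracted, the median Pearson r over the 903 pairs of members was 0.476 across the 11 animals, and 84.8% of the pairs were above 0. Over the pairs of all genes tested the median r was 0.114 and 59.2% were above 0. After median-of-ratios scaling the members had a median r of 0.642 with 96.1% of pairs above 0, while the median of all genes was -0.002. Within the other lists the median r was 0.675 (0.829 after scaling) for the proteins encoded in mitochondrial DNA. It was 0.616 (0.785) for the nuclear respiratory chain genes, 0.487 (0.706) for the cytosolic ribosome and 0.248 (0.383) for the assembly list. The genes of mitochondrial DNA transcription were at 0.441 (0.501), the translation factors at 0.337 (0.308) and mitoribosome genes without the MRP prefix at 0.342 (0.493). Lists of cell type markers ran from 0.461 (muscle) to 0.977 (adipocyte), and after scaling from 0.149 (endothelium) to 0.975 (adipocyte). All pairs share the same 11 libraries, so that depth and RNA composition enter each r, and these values are a description without a test. The members also stood at a higher level than most genes tested, and no comparison with genes of like level was made.

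**Figure D3:**
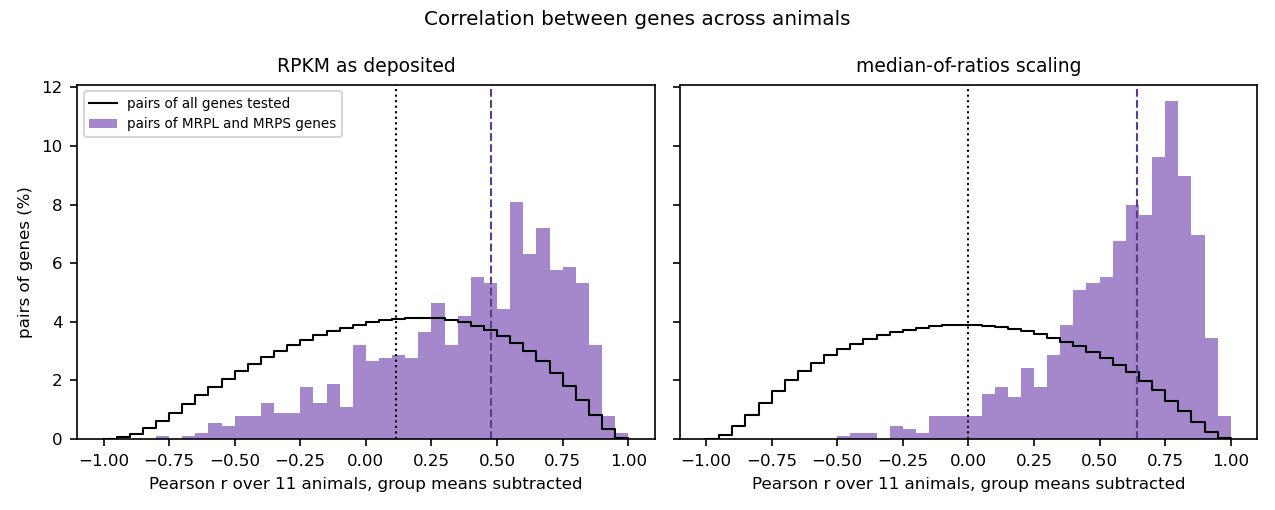
Share of gene pairs (%) by Pearson r over the 11 animals with group means subtracted, for the pairs of MRPL and MRPS genes (bars) and of all genes tested (line), with RPKM as deposited (left) and after median-of-ratios scaling (right). Vertical lines mark the medians, 0.476 against 0.114 on the left and 0.642 against -0.002 on the right.

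A first principal component held 48.8% of the variance of the members and 62.5% after scaling. The median r was 0.489 within the 6 IB animals alone and 0.591 within the 5 IBxDU animals alone. It was 0.510 between large subunit members, 0.351 between small subunit members and 0.458 between a large and a small subunit member. When each animal was left out in turn, the median over all pairs stayed between 0.444 and 0.527.

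The highest single pairs joined MRPL17 with MRPL15 (r = 0.966), MRPL46 with MRPL15 (0.961) and MRPL46 with MRPL17 (0.933), over 11 animals each. MRPL15 and MRPL17 are homologues of bacterial L15 and L17. MRPL28 with MRPL11, the homologue of the stalk base protein L11, reached 0.932, and MRPL2 with MRPL38, another protein of the central protuberance, reached 0.931. All of these are large subunit genes. MRPL28 and MRPL24, the genes with the highest levels, stood near opposite ends of the order by mean r with the other members.

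Of the 43 members, 33 had a mean r with the others above 0.3. The highest was MRPS27 (ENSSSCG00000023818), a small subunit protein with pentatricopeptide repeats, at 0.606. It was at 38.5, 49.3 and 56.1 RPKM in IB and at 50.6, 44, 57.4, 50.4 and 60.3 RPKM in IBxDU. The high animals were IB-323, IBxDU-426 and IBxDU-429 and the low ones IB-330, IB-431 and IBxDU-412. MRPL28 followed at 0.592, and MRPS34 (ENSSSCG00000008016), a small subunit protein specific to mitochondria, at 0.587. MRPS34 was at 25.8, 32 and 37.5 RPKM in IB and at 33.6, 25.9, 35.4, 30.3 and 45.2 RPKM in IBxDU. IB-330, IB-431 and IBxDU-412 were again its 3 lowest animals, and IBxDU-429 and IB-323 its highest.

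At the other end, 2 members had a mean r below 0. MRPL10 (ENSSSCG00000017519), whose bacterial homologue L10 carries the stalk that recruits translation factors, had the lowest at -0.135 and was still at 0.03 after scaling. It was at 14.1, 15.8 and 21 RPKM in IB and at 20.9, 16.3, 17.1, 9.99 and 13.8 RPKM in IBxDU. IBxDU-402 was thus high and IBxDU-427 low, the reverse of most members. Its lowest pair, with MRPL39, was at r = -0.760. MRPL24 was at -0.067, and at 0.28 after scaling. MRPS6 (ENSSSCG00000026981), the homologue of bacterial S6, was at 0.080, with 22.2, 24.8 and 34.4 RPKM in IB and 26.1, 28.2, 25.4, 31.6 and 33 RPKM in IBxDU. IB-345 was its highest animal and IB-323, which was high in most members, its lowest.

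**Figure D4:**
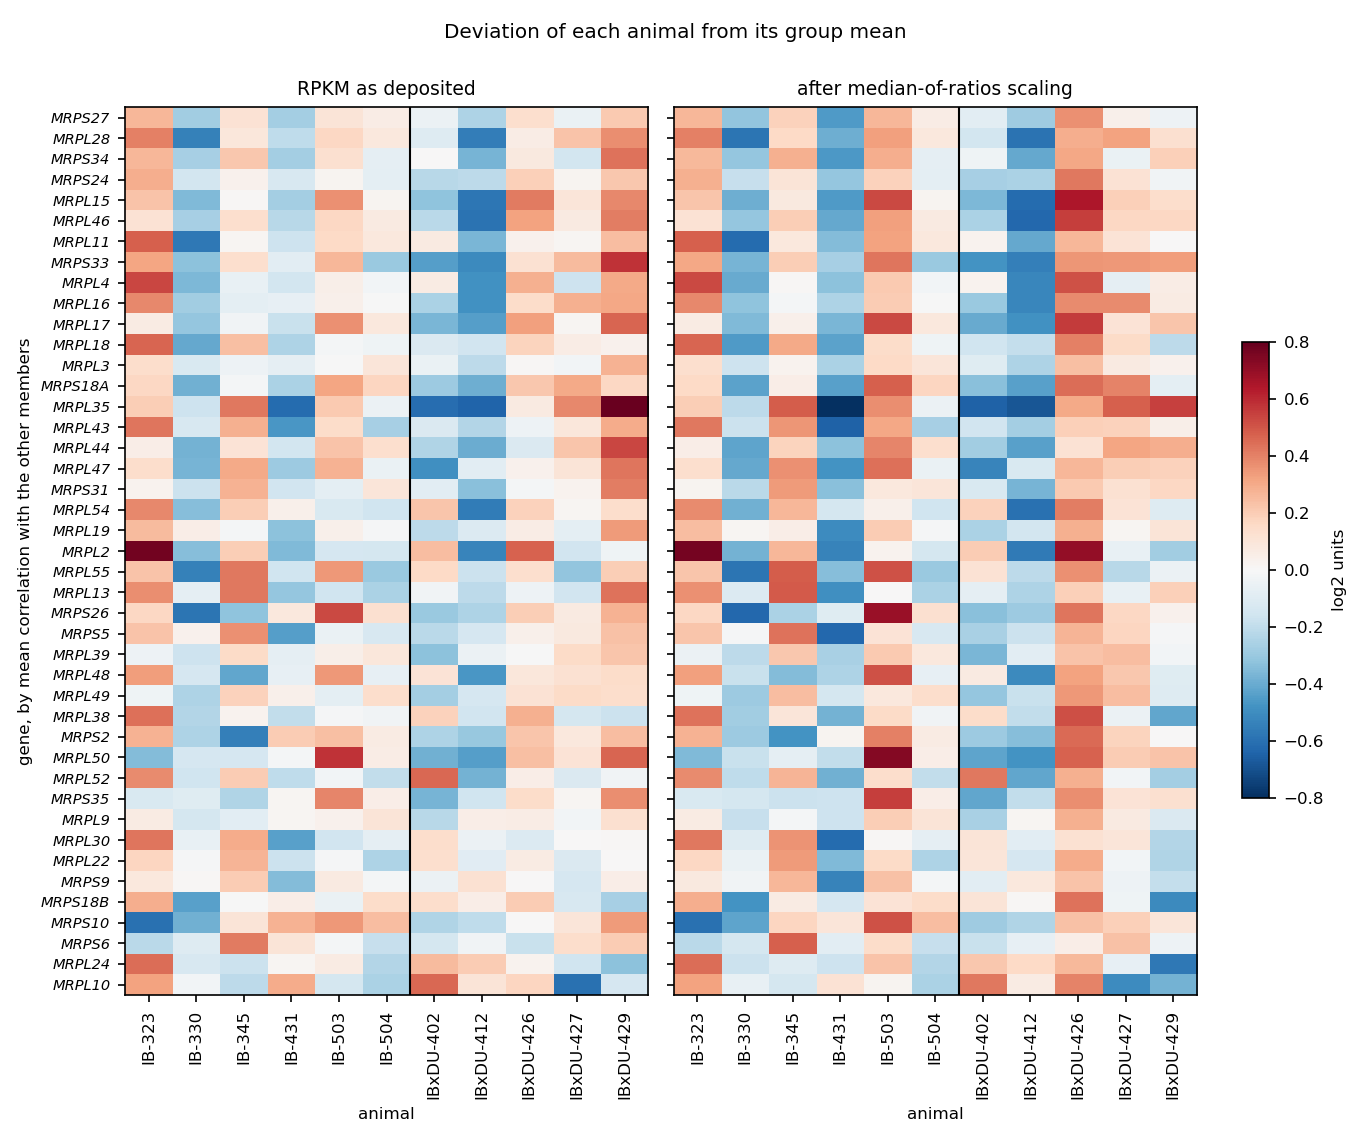
Deviation of each animal from its group mean on the log2 scale (colour) for the 43 members, ordered by mean correlation with the other members, with RPKM as deposited (left) and after median-of-ratios scaling (right). IB-330 and IBxDU-412 are low and IB-323 high across most rows in both panels, IBxDU-429 is high only on the left, and the bottom rows (MRPS6, MRPL24 and MRPL10) do not follow the others.

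The order of the animals was partly one of scale. With the RPKM as deposited, IBxDU-429 was the highest of the 11 animals in 23 members, IB-323 in 10, and IB-330 was the lowest in 17. The median-of-ratios factor of IBxDU-429 was 1.24, the largest of all animals, and after scaling its members lay at the general mean, with a median deviation of 0.003 on the log2 scale. In this animal the 4 muscle markers summed to 26982 RPKM, the lowest value. Its part in the high RPKM of the members was not tested.

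After scaling, IBxDU-426 and IB-503 were above their group mean in 43 of 43 members, with median deviations from the mean of all animals of 0.31 and 0.22. These are also the animals with the most recovered exon reads, 30630157 and 29623056. The lowest were IB-431 at -0.35, IB-330 at -0.30 and IBxDU-412 at -0.26, which were above their group mean in 3, 1 and 5 of 43 members, and these had 21278514 to 22332406 reads. At like depth, IB-323 (22593036 reads) was at 0.21 and IB-345 (22174505 reads) at 0.17. The animals with the fewest reads, 16940746 to 19240990, were IB-504 at -0.05, IBxDU-402 at -0.15, IBxDU-429 at 0.003 and IBxDU-427 at 0.14. The part of depth in the order of the animals was not tested. By group, the median deviation after scaling was -0.02 ± 0.26 in IB and 0.01 ± 0.23 in IBxDU (SD, n = 6 and 5), and with the RPKM as deposited it was -0.07 ± 0.18 and 0.07 ± 0.18. The groups overlapped on both scales.

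The markers of other cell types had negative median correlations with the members. The fibroblast list had 4 of 5 markers in the table. DCN, LUM and COL3A1 were highest in IBxDU-402 and lowest in IBxDU-426, with a sum of 484 to 3720 RPKM that also counts PDGFRA, listed at 0 in all animals. The median r of a fibroblast marker with a member was -0.24, and -0.50 after scaling. For the 2 adipocyte markers with a row (of 5), PLIN1 and CIDEC, whose sum ranged from 0.342 to 89.9 RPKM, it was -0.19 and -0.48. For endothelium, macrophages, red cells and nerve it lay between -0.37 and -0.17, and between -0.37 and -0.18 after scaling. The 4 muscle markers gave -0.07 and 0.34, over 11 animals in each case, and the part of cell composition in the spread of the members was not tested.

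The mitoribosome also holds proteins whose symbols lack the MRP prefix, and 4 of 8 such genes had a row, the small subunit proteins DAP3, PTCD3 and CHCHD1 and the insertase OXA1L, which docks at the ribosome. They split evenly, with 2 of 4 higher in IBxDU, and 0 were at an unadjusted p under 0.05. DAP3, a GTP-binding protein of the small subunit, averaged 31.7 ± 3.34 RPKM (IB) and 30.3 ± 2.2 RPKM (IBxDU), and PTCD3 23.1 ± 3.94 and 28.7 ± 9.54 RPKM (SD, n = 6 and 5). Their median r with the MRPL and MRPS genes was 0.43, and 0.61 after scaling.

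Genes listed for assembly of the mitoribosome, a broad list that holds the RNA-binding proteins LRPPRC and GRSF1, were measured for 17 of 28 symbols. In this group 13 of 17 were higher in IBxDU, where 66.9% of all genes were, and 11 after either scaling, where about 51.5% of all genes were. The median log2 fold change was 0.215, and 0.09 after upper quartile and 0.10 after median-of-ratios scaling. At an unadjusted p under 0.05 there were 2 genes, both higher in IBxDU as were 6.0% of all genes. The count was 1 after either scaling, where 7.39% (upper quartile) and 7.45% (median-of-ratios) of all genes were called in either direction. It was 4 without IBxDU-402, 3 without IB-503 or IBxDU-412, and 1 without IB-323, IB-330, IB-345, IBxDU-426 or IBxDU-429. Without these animals the share of all genes ran from 4.51% (IBxDU-429) to 11.9% (IBxDU-412). FASTKD2, an RNA-binding protein needed for the large ribosomal RNA, was at 5.42, 6.24 and 7.01 RPKM in IB and at 7.94, 6.7, 9.52, 9.82 and 13.1 RPKM in IBxDU. With 4 of 5 IBxDU animals above all IB animals, its log2 fold change was 0.56 (SE 0.18, limma adjusted p = 0.539). NOA1, a GTPase of small subunit assembly, averaged 4.25 ± 1.0 RPKM in IB against 6.84 ± 3.18 RPKM (SD, n = 6 and 5, limma adjusted p = 0.594), with IBxDU-426 at 12.3 RPKM far above the rest. None passed the adjusted threshold, and the median r with the members was 0.32, and 0.49 after scaling.

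The translation factors that work on this ribosome were measured for 10 of 15 symbols. Of these, 6 were higher in IBxDU, where 66.9% of all genes were, and 5 after either scaling, where about 51.5% were. The median log2 fold change was 0.143, and 0.02 after either scaling. It was 0.25 without IBxDU-402, 0.08 without IB-330 and 0.05 without IBxDU-429. Only GFM2, the elongation factor G that recycles the ribosome at the end of translation, was at an unadjusted p under 0.05. It was higher in IBxDU, as 6.0% of all genes were at this threshold. It was at 1.76, 2.38 and 3.17 RPKM in IB and at 3.34, 3.58, 3.79, 3.21 and 6.37 RPKM in IBxDU. The groups did not overlap, although IBxDU-427 and the highest IB animal were nearly equal. Of all genes tested, 0.808% were higher in IBxDU without overlap. The log2 fold change of GFM2 was 0.75 (SE 0.23, limma adjusted p = 0.477). GFM1, the paralogue of GFM2 that drives elongation, was at 20.1 ± 2.9 and 24.9 ± 6.4 RPKM (limma adjusted p = 0.674).

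Genes for transcription and maintenance of mitochondrial DNA were listed together with nuclear regulators, and 11 of 17 symbols were measured. The regulators with a row were NRF1, PPARGC1B, PPRC1 and ESRRA. In this mixed list 11 of 11 were higher in IBxDU by log2 fold change, against 66.9% of all genes. After either scaling 9 were, against 51.4% or 51.5% of all genes. The count was 9 without IB-330, IBxDU-427 or IBxDU-429, and 10 without IB-323, IB-345 or IB-503. Without these animals between 60.7% (IBxDU-429) and 69.2% (IBxDU-427) of all genes were higher in IBxDU. PPARGC1B was higher on the log2 scale only (log2 fold change 0.04, SE 0.43). Its mean was 8.02 RPKM in IB, with IB-431 at 21.4 RPKM, and 6.96 RPKM in IBxDU. TFB2M, the factor that opens the promoter for the mitochondrial RNA polymerase, was at 3.45, 4.42 and 9.06 RPKM in IB and at 6.54, 6.19, 15, 13.3 and 16.8 RPKM in IBxDU. IBxDU-426, IBxDU-427 and IBxDU-429 were above all IB animals, and IBxDU-402 and IBxDU-412 inside their range. The log2 fold change was 1.08 (SE 0.32, limma adjusted p = 0.464), and the other 10 genes of the list were not at an unadjusted p under 0.05. With TFB2M, 3 genes were without IBxDU-402 and 2 without IB-345, IB-431 or IBxDU-412. Of all genes, 8.03% were at this threshold in either direction. Without these animals the share was between 7.03% (IB-345) and 11.9% (IBxDU-412). The list had a median log2 fold change of 0.312, of 0.19 after either scaling and of 0.18 without IBxDU-429.

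The genes for proteins of the respiratory chain leaned the other way. All 13 proteins encoded in mitochondrial DNA, the products of this ribosome, had a lower mean in IBxDU, also after both scalings, whereas 66.9% of all genes had a higher mean there. The median log2 fold change was -0.195, and -0.32 after either scaling. Without IBxDU-402, 10 of the 13 were lower. They summed to 213255 ± 26962 RPKM (IB) and 185170 ± 25432 RPKM (IBxDU; SD, n = 6 and 5), with the lowest sum, 142995 RPKM, in IBxDU-402. In ND3, a subunit of complex I, 5 of 6 IB animals were above all IBxDU animals (log2 fold change -0.37, SE 0.14, limma adjusted p = 0.572). ND3 was the one gene of the list at an unadjusted p under 0.05. Without a filter 0 genes of the list were, where 7.11% of all genes were called in either direction. The count was 3 after upper quartile scaling. It was 5 without IB-431, 4 without IBxDU-427, 3 without IB-330, 2 without IB-323, and 0 without IB-503 or IBxDU-429. Of all genes, 2.02% were higher in IB at this threshold, and 4.37% after upper quartile scaling. Without these animals, between 4.51% (IBxDU-429) and 8.39% (IB-431) of all genes were called in either direction. ATP8 and ATP6 overlap in mitochondrial DNA, so that their reads cannot be fully told apart.

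Of the nuclear genes for the respiratory chain, complex II included, 32 of 58 symbols had a row. Among these, 5 were higher in IBxDU, where 66.9% of all genes were, and 2 after either scaling, where about 51.5% were. The median log2 fold change was -0.148, and -0.27 after either scaling. The number higher in IBxDU was 2 without IBxDU-427, 9 without IBxDU-412 and 8 without IB-323 or IB-345, and the median was -0.07 without IB-323, -0.09 without IB-345 and -0.10 without IBxDU-412. SDHC, a membrane anchor of complex II, was at 139, 189.7 and 245 RPKM in IB and at 143, 149.9, 111, 151 and 121 RPKM in IBxDU. It was below the IB mean in all 5 IBxDU animals, with a log2 fold change of -0.49 (SE 0.16, limma adjusted p = 0.539), and it was the one gene at an unadjusted p under 0.05 (3 after upper quartile and 2 after median-of-ratios scaling, and 2 without IB-323 or IB-431). Of all genes, 8.03% were at this threshold in either direction, 7.39% after upper quartile and 7.45% after median-of-ratios scaling. The shares were 7.31% without IB-323 and 8.39% without IB-431. The nuclear respiratory chain genes followed the members across animals, with a median r of 0.37, and 0.62 after scaling. For the genes of mitochondrial DNA the values were 0.26 and 0.56.

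**Figure D5:**
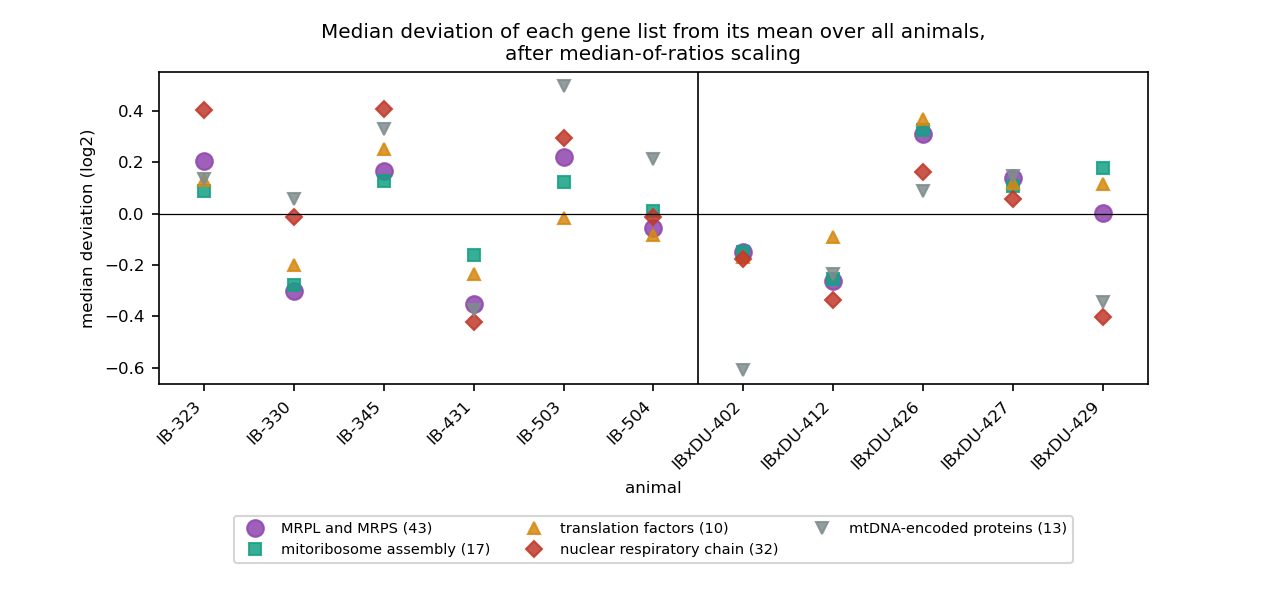
Median deviation of the members of each gene list from their mean over all animals (log2, after median-of-ratios scaling) in each animal, with the number of genes in the legend. IB-431, IBxDU-402 and IBxDU-412 are low and IB-323, IB-345, IBxDU-426 and IBxDU-427 high in all 5 lists, whereas in IBxDU-429 the MRPL and MRPS genes lie at 0.003 and both respiratory chain lists are low.

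Genes of the cytosolic ribosome were compared as the counterpart outside the organelle, with 24 of 79 symbols matched. Of these 5 were higher in IBxDU, where 66.9% of all genes were, and 0 after either scaling, where about 51.5% were. The median log2 fold change was -0.05, and -0.17 after either scaling. The number higher in IBxDU was 13 without IBxDU-412, 10 without IB-323 or IB-345, 9 without IB-503 and 2 without IB-330. The median was -0.10 without IB-330, -0.08 without IBxDU-402, -0.02 without IB-345 or IB-503 and 0.02 without IBxDU-412. RPL14, a large subunit protein, was at 425.8, 537 and 600.2 RPKM in IB and at 415, 313, 240.2, 407 and 261 RPKM in IBxDU, without overlap (log2 fold change -0.70, SE 0.17, limma adjusted p = 0.405). Of all genes tested, 0.227% were higher in IB without overlap. RPS21, of the small subunit, was at 92.9 ± 19.1 and 61.9 ± 22.2 RPKM (limma adjusted p = 0.550). Genes of this kind have near-identical copies in mammalian genomes, among which the counting may have split the reads. Their median r with the mitochondrial members was 0.35, and 0.60 after scaling, about that of the nuclear respiratory chain genes.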

How the data were processed

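Total RNA of Biceps femoris was made into mRNA libraries and sequenced as paired reads, and the authors mapped them to Sscrofa10.2 in CLC Bio Genomic Workbench. The authors deposited 1 RPKM value per gene and animal, which their methods call FPKM. They also deposited a p-value and a fold change per gene from their own comparison, and these columns were not used. How reads that match several places were counted is not given in the sources used here.

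Symbols were matched by Ensembl identifier to a name table. Its coordinates belong to another build and none is printed. Members and lists were chosen with earlier results of these data known.

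In 16953 of 16953 genes above 0 (100%) the RPKM values were whole multiples of 1 read to within 0.0001 reads, which gave the scaling totals (18518497 to 33544359 mapped reads per animal) and the reads per gene. The RPKM values, as log2(RPKM + 0.1), were tested with limma 3.58.1 (trend, R 4.3.3) with the genetic type alone over 11875 genes with a group mean above 0.5 RPKM, and adjusted by the Benjamini-Hochberg method at 0.05. Fold changes on this scale understate the change of low genes. Single genes were also tested by exact two-sided permutation over 462 relabelings. Correlations were computed in Python 3.11.15 with numpy 2.4.6, pandas 2.3.3 and scipy 1.17.1. Steps were tested on simulated data.

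Genes named with values are the 8 members with the smallest p, the 4 highest and 4 lowest levels, the 3 highest and 3 lowest mean correlations, and from each other list up to 4 genes with the smallest p. MRPS18B was added after its value was seen. The alternatives were a pseudocount of 1, no filter, upper quartile and median-of-ratios scaling, Spearman's rho, group means kept, each animal left out, and, added after seeing the data, limma-voom on the recovered reads.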

Additional observations from a re-analysis of the deposited data

Results flagged for a closer look

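One value among those checked stood far from the rest of its group. MRPL50 was at 9.68 RPKM in IB-503, where the other 5 IB animals lay between 5.05 and 6.72 RPKM, and the gap to the nearest of them was 0.638 of the range of the group. It was the only such value among 38 groups of values checked, of which chance alone flags about 1 in 20. The check did not cover every member, and values far from their group also occurred outside it. MRPL48 was at 21.2 RPKM in IBxDU-412, where the other IBxDU animals lay between 31.3 and 32.6 RPKM. IB-503 is the IB animal with the most exon reads. Without it the log2 fold change of MRPL50 was 0.52, against 0.41 with all animals.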

How the results depend on the processing

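No member passed the adjusted threshold under any alternative (lowest adjusted p among the 18 named members 0.221). The 2 members at an unadjusted p under 0.05 became 4 without a filter (with MRPS35 and MRPS9 added), 1 after upper quartile scaling (MRPS18B, higher in IB) and 0 after median-of-ratios scaling. When single animals were left out the count ran from 0 to 6. It was 0 without IBxDU-426 or IBxDU-429, 1 without IB-323, IB-431, IB-504 or IBxDU-427, 3 without IB-345 or IB-503, 5 without IBxDU-402 and 6 without IBxDU-412. Of all genes tested, 8.03% were at an unadjusted p under 0.05, 7.11% without a filter, and with an animal left out between 4.51% (IBxDU-429) and 11.9% (IBxDU-412). Members higher in IBxDU, 36, became 22 after either scaling and 32 to 39 with an animal left out, and the median log2 fold change of 0.131 ran from 0.061 without IB-330 to 0.195 without IBxDU-412. The median correlation of 0.476 became 0.515 after upper quartile and 0.642 after median-of-ratios scaling, 0.444 to 0.527 with an animal left out, 0.473 by Spearman's rho and 0.484 with group means kept. A pseudocount of 1 and limma-voom both gave 2 and 36. Of 18 named members 13 kept their direction in all alternatives. The upper quartile and median-of-ratios scalings reversed MRPL28 (-0.0806 and -0.0795), MRPS18A (-0.0671 and -0.0660) and MRPS34 (-0.0214 and -0.0203), whose fold changes were smaller than the shift of all genes. With single animals left out, the log2 fold change ran from -0.0667 to 0.18 for MRPL28, from -0.0225 to 0.15 for MRPS18A, from -0.00782 to 0.19 for MRPS34, from -0.14 to 0.135 for MRPL2 and from -0.26 to 0.00938 for MRPL10. No paired analysis was possible because the animal numbers are not shared between the groups. With 6 against 5 animals, fold changes near the SE of 0.13 to 0.27 of the members were not detectable.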
